A study of Rattus norvegicus with 10 samples.

Results

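The 148 abundant long non-coding RNA (lncRNA) transcripts of rat cortex described here were selected on their measured levels from a deposited table of 31183 lncRNA transcripts. A transcript was a member where its mean over all 10 libraries was at least 5 FPKM and the ratio of its group means, MCAO/R over sham, lay between 0.25 and 4. FPKM counts sequenced fragments per length of transcript and per size of library. Of 227 transcripts with a mean of at least 5 FPKM, 79 lay outside the ratio bounds, 35 below and 44 above. Both the levels and the group ratio of the members were thus fixed by the choice, and they are given as a description, without a test.

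The study compared cerebral cortex of male Sprague-Dawley rats, 8 to 9 weeks old and weighing 240 ± 20 g, between 2 groups of 5 libraries. MCAO/R libraries came from rats whose middle cerebral artery was occluded for 2 h and then reperfused for 24 h, which models a stroke in which the blocked vessel reopens, and sham libraries from rats given sham surgery. Strain, sex and tissue were the same in both groups, and each library was made with a strand-preserving kit from 1.5 µg of total RNA depleted of ribosomal RNA. Replicates carry the numbers 1 to 5 in MCAO/R and 6 to 10 in sham, and the labels do not say that each library is a separate animal. The p-values below thus weigh the group difference against the spread between these libraries, part of which may be technical.

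Long non-coding RNAs are transcripts classed as lacking a long open reading frame. Some act in the nucleus on chromatin or splicing, some are hosts of small RNAs, and the brain is known for expressing many of them, most at lower levels than messenger RNAs. A library of total RNA also keeps transcripts without a poly(A) tail and unspliced nuclear RNA. Where overlapping isoforms are assembled from reads, fragments that fit several isoforms are shared out by estimation, so the level of an isoform depends on the other isoforms of its locus. Identifiers here have a locus number followed by an isoform number (MSTRG.236450.7 is isoform 7 of locus MSTRG.236450). The 148 members lay in 87 such loci. None of the 148 member identifiers, and none of the 26001 annotated identifiers of the mRNA table, matched the reference table, so members are named by identifier only, their positions, sequences and functions are not given, and cortical markers could not be checked.

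The files give no fragment counts, so the depth behind each value is unknown, and precision is set by the 5 libraries in each group. The lncRNA FPKM sum of a library ranged from 42509 to 75716 in MCAO/R and from 42847 to 77010 in sham. Over annotated transcripts of the mRNA table, MCAO/R replicate 3 correlated about equally with its own group (mean r = 0.876) and with sham (mean r = 0.877), where the average was 0.879 within MCAO/R and 0.841 between groups. The part of this library in the results was measured by leaving it out. MCAO/R replicate 2 had 54.0% of its lncRNA sum in the abundant transcripts outside the ratio bounds.

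Members made up most of the lncRNA sum in 9 of the 10 libraries. Their share was 58.2%, 37.8%, 84.2%, 82.5% and 77.1% in MCAO/R replicates 1 to 5, and 64.1%, 65.7%, 79.4%, 73.6% and 68.1% in sham replicates 6 to 10. The mean share was 68.0% ± 19.8 (SD, n = 5) in MCAO/R and 70.2% ± 6.28 (SD, n = 5) in sham, and the groups overlapped. MCAO/R libraries were thus both the lowest and the highest. The 79 abundant transcripts outside the ratio bounds held 28.5%, 54.0%, 3.09%, 3.52% and 5.40% in MCAO/R and 18.4%, 16.5%, 10.8%, 10.8% and 14.3% in sham. MCAO/R replicates 1 and 2, where these transcripts held most, were the libraries with the lowest member shares. A single transcript, MSTRG.236450.6, held 26.9% and 46.2% of the lncRNA sum there, most of what the 79 held.

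**Figure D1:**
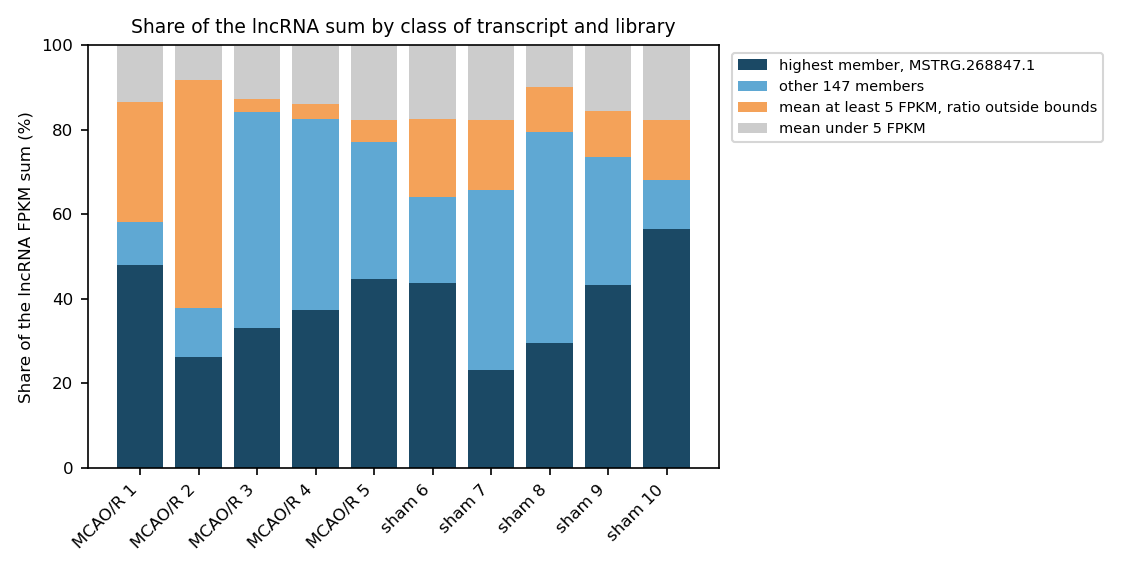
Stacked bars give the share of the lncRNA FPKM sum (%, vertical axis) in each of the 10 libraries for the highest member, the other 147 members, the abundant transcripts outside the ratio bounds and all transcripts below 5 FPKM. The member share (the lowest pair of segments) ran from 37.8% in MCAO/R replicate 2 to 84.2% in MCAO/R replicate 3, while the class below 5 FPKM stayed between 8.21% and 17.7%.

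The sum was concentrated in very few members. Of the 148 members, 92 had a mean of 5 to 20 FPKM, 41 had 20 to 100, 10 had 100 to 1000 and 5 had at least 1000 FPKM. The 6 highest members alone held 55.2% ± 17.5 of the lncRNA sum in MCAO/R and 60.5% ± 7.66 in sham (SD, n = 5 each), and all the other members together 12.7% ± 7.44 and 9.72% ± 1.78.

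MSTRG.268847.1 was the highest member and the only transcript of its locus. Its level was 23008, 19899, 18917, 19576 and 19004 FPKM in MCAO/R and 18744, 15378, 22725, 26273 and 29179 FPKM in sham. All 10 libraries lay within a 1.90-fold range and the groups overlapped. The mean was 20081 ± 1686 FPKM in MCAO/R and 22460 ± 5561 FPKM in sham (SD, n = 5), a ratio of 0.894, and the sham libraries were the more widely spread. This transcript took 37.9% ± 8.79 of the lncRNA sum in MCAO/R and 39.2% ± 13.1 in sham. Left out of the sum, it leaves the other members with 48.4% ± 29.0 and 48.5% ± 17.3.

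The next highest members were not stable between replicates. MSTRG.290313.1 was at 221, 3366, 6389, 5210 and 143 FPKM in MCAO/R and at 948, 9444, 2633, 112 and 220 FPKM in sham. Its group ratio was 1.15 although its highest library exceeded its lowest 84.3-fold, and each group held both high and low libraries. Without sham replicate 7 its log2 ratio moved from 0.20 to 1.65, and without MCAO/R replicate 3 to -0.26. MSTRG.116387.1, another transcript that was alone at its locus, measured 487, 38.4, 1385, 513 and 34.1 FPKM in MCAO/R and 2599, 71.4, 2514, 281 and 26.7 FPKM in sham. Its ratio of group means was 0.447, with 97.4-fold between its extreme libraries. Its log2 ratio, -1.16, was -2.03 without MCAO/R replicate 3 and -0.56 without sham replicate 6, the extremes with 1 library left out.

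At the other end stood members with nearly the same level in every library. MSTRG.272494.1 had the smallest spread, with 19.2, 20.2, 18.3, 17.1 and 16.8 FPKM in MCAO/R and 17.7, 13.8, 16.9, 16.5 and 17.6 FPKM in sham. Spread is given here as the SD of log2(FPKM + 0.1) between replicates, pooled over both groups, and for this member it was 0.13, with overlapping groups and a ratio of 1.11. MSTRG.206504.1 was at 6.00, 6.47, 7.09, 5.82 and 6.69 FPKM in MCAO/R and at 6.14, 5.07, 6.62, 6.38 and 5.05 FPKM in sham, a ratio of 1.10 with a spread of 0.15 and overlapping groups.

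Other steady members had groups that did not overlap. MSTRG.240642.1 was at 24.5, 18.0, 21.8, 22.7 and 24.0 FPKM in MCAO/R and at 29.4, 28.8, 26.2, 29.6 and 32.0 FPKM in sham. Every sham library was above every MCAO/R library, at a ratio of 0.760 and a spread of 0.15. MSTRG.46797.24 had 7.88, 7.15, 7.43, 6.39 and 7.47 FPKM in MCAO/R and 4.80, 3.68, 4.81, 4.84 and 3.83 FPKM in sham. Here every MCAO/R library was the higher, at a ratio of 1.65 and a spread of 0.16. Of the 56 members with at least 20 FPKM, 14 had a spread under 0.5, among them MSTRG.181479.1 and MSTRG.78990.2, named here after their values were seen, with spreads of 0.33 and 0.35 and ratios of 0.817 and 0.987.

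**Figure D2:**
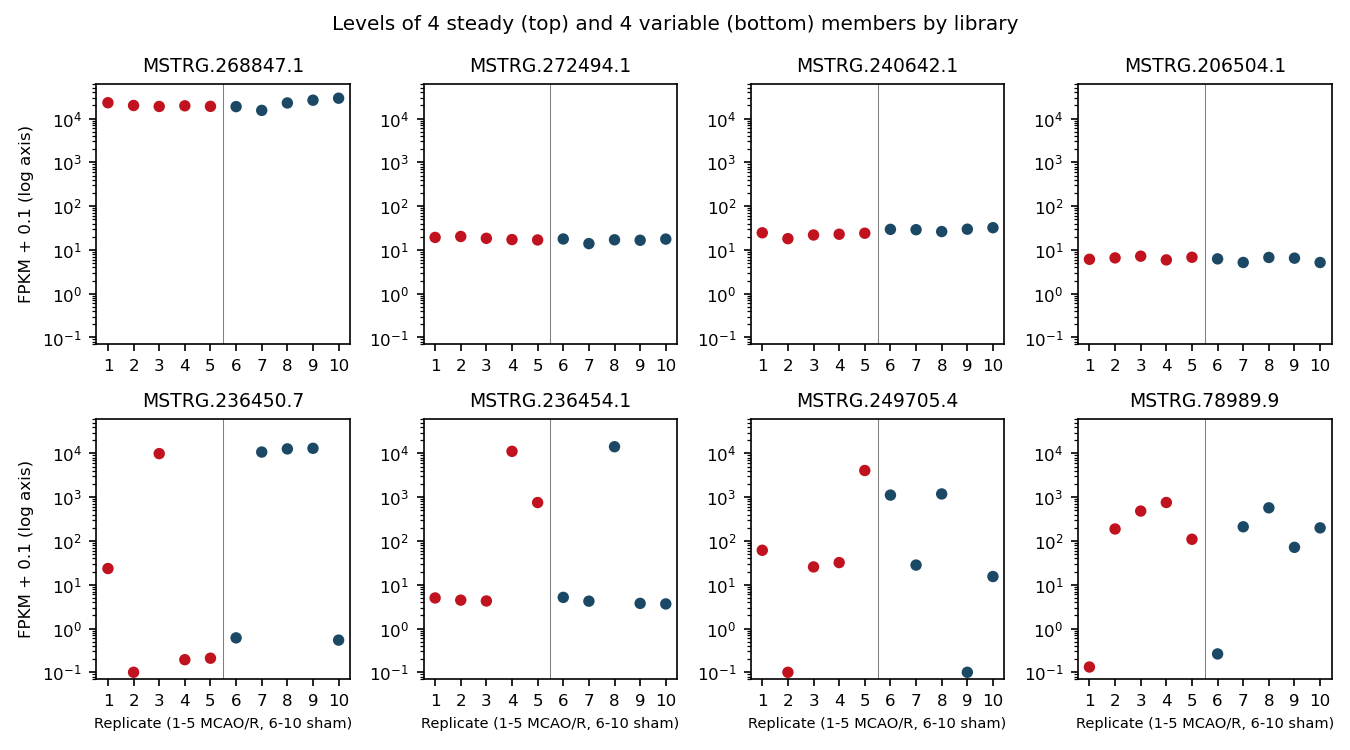
Each panel plots the level of 1 member, as FPKM + 0.1 on a log axis, in MCAO/R replicates 1 to 5 (red) and sham replicates 6 to 10 (blue). The 4 members of the top panels stay within a narrow band, while those of the bottom panels jump, in both groups, between values near 0 or a few FPKM and values as high as 756 (MSTRG.78989.9) or 14210 FPKM (MSTRG.236454.1).

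Over all 148 members the median spread was 0.93 in MCAO/R and 0.72 in sham, and 1.00 with the groups pooled. The SD was larger in MCAO/R for 79 of the 148. Pooled spreads covered a wide range: 56 members (37.8%) were under 0.5, 38 between 0.5 and 2, and 54 (36.5%) at 2 or more. Leaving out any MCAO/R library lowered the MCAO/R median, to between 0.59 without replicate 5 and 0.80 without replicate 4. With a median in place of a mean of at least 5 FPKM in the rule, the values were 0.46 in MCAO/R and 0.51 in sham, so that sham was the higher, and without loci that hold several members they were 0.35 and 0.34.

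High level did not go with small spread. The 92 members of 5 to 20 FPKM had a median spread of 0.55 and the 56 members above that had 2.08. With each locus counted once, these were 0.44 (61 loci) and 0.94 (35 loci). A single high library raises both the mean and the spread, so the 2 are not independent. Under the same level and ratio rule, 4188 annotated transcripts of the mRNA table had a median spread of 0.29, and 73.6% of them were under 0.5. Assembled transcripts of the mRNA table, 3316 under the same rule, had 0.59. The 787 lncRNA transcripts of 1 to 5 FPKM within the same ratio bounds had 0.56. With each locus counted once, by the median of its transcripts, members were not the most variable: the median was 0.45 for the 87 member loci, 0.52 for assembled mRNA-table loci, 0.51 for loci of lncRNA transcripts of 1 to 5 FPKM and 0.29 for annotated transcripts. No test was made between these sets.

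Spread went with the number of transcripts that share a locus. The 28 members that were the only transcript of their locus had a median spread of 0.30, close to that of annotated transcripts. The 37 members at loci of 2 to 5 transcripts had 0.35, the 18 at loci of 6 to 20 had 2.33 and the 65 at loci of more than 20 had 2.07. Members of a locus are not independent of each other, and those 65 came from only 19 loci. The 63 members with no other member at their locus had a pooled median of 0.33.

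**Figure D3:**
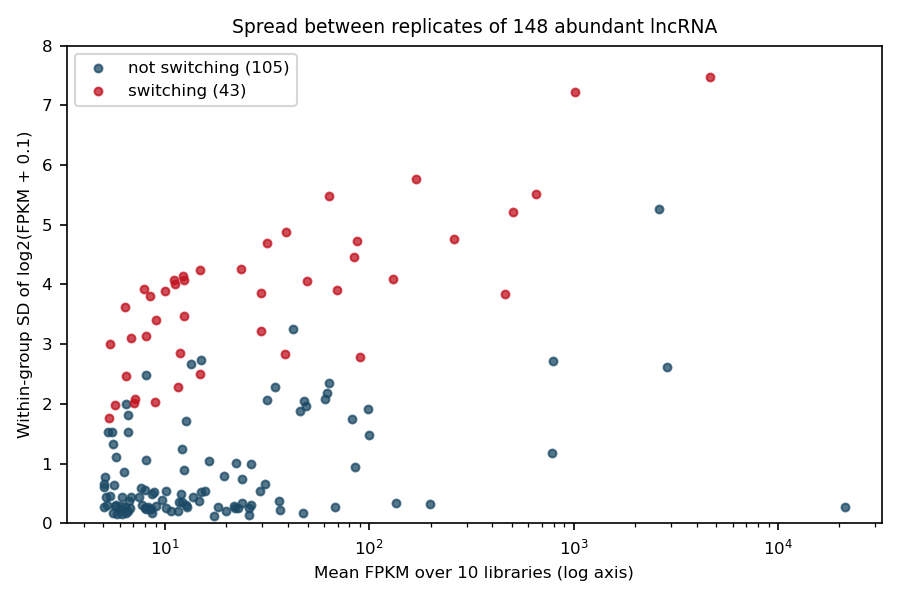
Each point is 1 of the 148 members, with its mean FPKM over the 10 libraries on a log axis (horizontal) and its within-group SD of log2(FPKM + 0.1) (vertical). The 43 members that switch between near 0 and high values (red) span mean levels up to 4639 FPKM, and 41 of them lie at 2 or more, while MSTRG.268847.1, at the far right, lies at 0.28.

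Of the 148 members, 43 (29.1%) switched, which means that they were under 0.1 FPKM in at least 1 library and at 5 FPKM or more in at least another. The same held for 4.42% of annotated transcripts under the same rule, 17.1% of assembled mRNA-table transcripts and 10.3% of lncRNA transcripts of 1 to 5 FPKM. Any transcript with a mean of at least 5 FPKM reaches 5 FPKM somewhere, while those of 1 to 5 FPKM need a library above their mean. The last percentage is therefore not on equal terms with the others. The switching members lay in 23 loci, and 37 of them were listed at exactly 0 somewhere. Near-0 values were found in 1 or 2 libraries for 26 of them and in more than 5 libraries for 12. They occurred in both groups for 24 members, in MCAO/R only for 13 and in sham only for 6. A member near 0 in every library of a group could not have met the ratio rule.

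Near-0 values were about as frequent in both groups. Of 150 such values, 76 were in MCAO/R and 74 in sham. The ratio bounds limit how far such values can gather in either group, so nothing is read from this balance. A library had 19, 19, 10, 12 and 16 near-0 members in MCAO/R and 17, 13, 12, 19 and 13 in sham. The switching members together summed to 2004, 2213, 17724, 2670 and 10711 FPKM in MCAO/R and to 3138, 15276, 15994, 15337 and 1818 FPKM in sham. Low and high sums stood side by side in each group.

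MSTRG.236450.7 had the largest spread and the second highest mean. It was at 23.4, 0, 9889, 0.0940 and 0.110 FPKM in MCAO/R and at 0.512, 10734, 12667, 13071 and 0.444 FPKM in sham. Thus 1 MCAO/R library and 3 sham libraries were between 9889 and 13071 FPKM, and the other 6 were at 23.4 FPKM or less. Its ratio of group means, 0.272, rests on that count of libraries, and its spread was 7.47. Without MCAO/R replicate 3 its log2 ratio moved from -1.88 to -10.27.

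Another isoform of this locus followed a different set of libraries. MSTRG.236450.3 was at 0.146, 0, 6104, 0.0387 and 2016 FPKM in MCAO/R and at 0, 2071, 0, 0 and 0.0319 FPKM in sham. It had the highest ratio of any member, 3.92, from 3 libraries with any sizeable level. Its log2 ratio, 1.97, was 0.28 without MCAO/R replicate 3, and without sham replicate 7 the sham libraries were at 0.0319 FPKM or listed at 0. MSTRG.236450.6 is an isoform outside the ratio bounds, at 12872, 34969, 291, 17.8 and 231 FPKM in MCAO/R and 75.7, 83.6, 0, 0 and 210 FPKM in sham. An isoform of the locus that is listed in the mRNA table, MSTRG.236450.1, reached 6695 FPKM in MCAO/R replicate 4.

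Summed over all its transcripts in both tables, the locus was high in libraries where MSTRG.236450.7 was near 0. Its sums were 12911, 34969, 16284, 6713 and 2247 FPKM in MCAO/R and 707, 12888, 12667, 13071 and 340 FPKM in sham. The spread of the sum was 2.12, against 7.47 and 7.22 for its 2 members. The lowest sums, 707 and 340 FPKM in sham replicates 6 and 10, were far from 0.

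Locus MSTRG.236454 alternated in a similar way, here between the 2 tables. Its member MSTRG.236454.1 was at 4.89, 4.35, 4.16, 11148 and 754 FPKM in MCAO/R and at 5.04, 4.12, 14210, 3.65 and 3.55 FPKM in sham. The isoform MSTRG.236454.3 of the mRNA table was at 5201, 5052, 5531, 51.7 and 5824 FPKM in MCAO/R and at 4483, 5050, 13.2, 15.0 and 5632 FPKM in sham. In the 2 libraries where the first was at 11148 and 14210 FPKM the second was at 51.7 and 13.2, and in 7 libraries the second was at 4483 FPKM or more. In sham replicate 9 neither was high, and the locus sum was 39.9 FPKM against up to 14250 FPKM elsewhere. The ratio of MSTRG.236454.1, 0.837, turned on single libraries: its log2 ratio, -0.26, was 9.19 without sham replicate 8 and -3.89 without MCAO/R replicate 4.

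**Figure D4:**
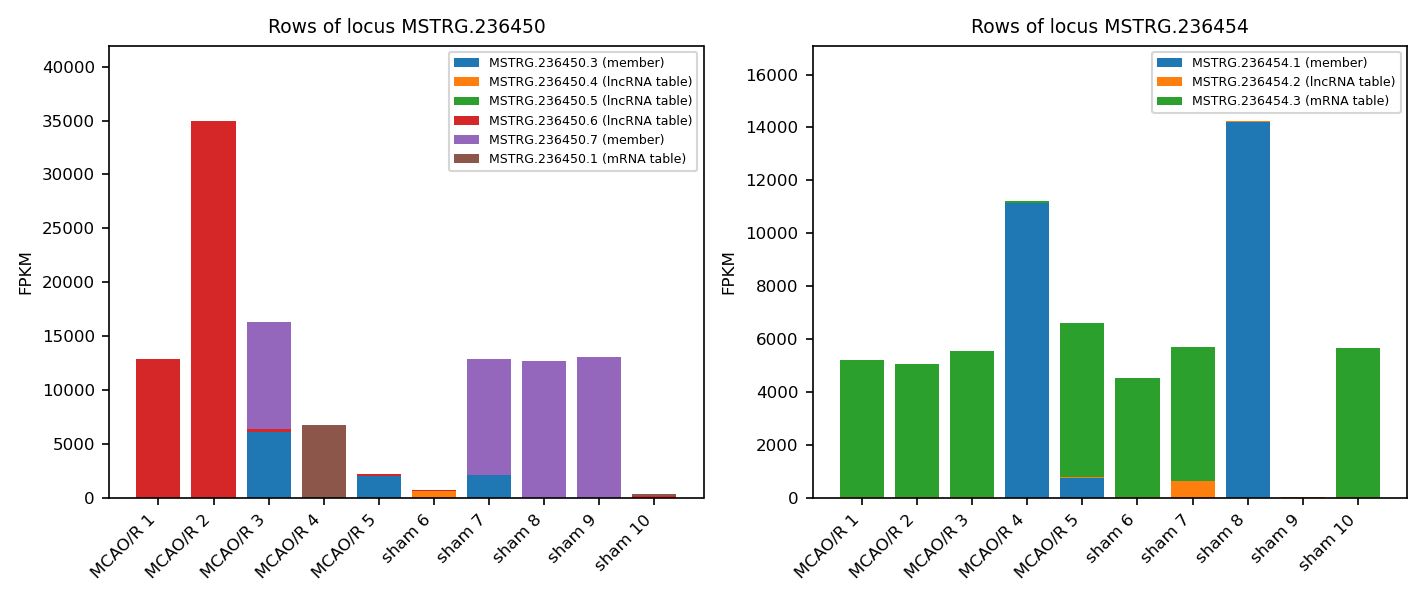
Stacked bars give the FPKM of every transcript of loci MSTRG.236450 (left) and MSTRG.236454 (right) in each of the 10 libraries, with members, other lncRNA transcripts and mRNA-table transcripts in separate colours. The transcript that holds most of a bar changes from library to library, as from MSTRG.236454.3 to MSTRG.236454.1 in MCAO/R replicate 4 and sham replicate 8.

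MSTRG.249705 held 4 members among 10 lncRNA transcripts. MSTRG.249705.4 was at 61.2, 0, 25.4, 32.0 and 4063 FPKM in MCAO/R and at 1116, 28.0, 1185, 0 and 15.3 FPKM in sham. MSTRG.249705.8 was at 1556, 241, 0, 0 and 1071 FPKM in MCAO/R and at 597, 54.2, 57.5, 733 and 758 FPKM in sham. MSTRG.249705.5 was high in a single library of each group, at 1210 FPKM in MCAO/R replicate 2 and 479 FPKM in sham replicate 7, and at 0.0078 FPKM or listed at 0 in the other 8. The highest member thus differed between libraries. The locus sum also varied, from 251 to 5134 FPKM in MCAO/R and from 737 to 1942 FPKM in sham. Its spread was 1.35, against a median of 5.36 for its members, and its extreme libraries were 20.5-fold apart.

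Switching members of MSTRG.78988 and MSTRG.216423 were near 0 in 1 or 2 libraries only. MSTRG.78988.3 was at 0, 39.8, 6.78, 20.3 and 2428 FPKM in MCAO/R and at 462, 633, 229, 741 and 66.9 FPKM in sham. In MCAO/R, 4 libraries were below every sham library and replicate 5 was above all of them, and the ratio of means was 1.17. Without replicate 5 its log2 ratio moved from 0.23 to -4.67. MSTRG.216423.1, with the second highest ratio of 2.96, was at 18.1, 72.3, 160, 695 and 29.5 FPKM in MCAO/R and at 0, 68.0, 214, 47.4 and 0.00666 FPKM in sham. The groups overlapped, and MCAO/R replicate 4 exceeded every other library. Its log2 ratio, 1.56, was 0.08 without MCAO/R replicate 4 and 2.76 without sham replicate 8.

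The lowest ratios belonged to members of different kinds. MSTRG.78988.11, at a ratio of 0.256, was at 0.152, 0.484, 1.98, 57.3 and 0 FPKM in MCAO/R and at 215, 1.16, 4.09, 3.06 and 10.8 FPKM in sham, so that 1 library of each group held most of its group's sum. Its log2 ratio, -1.97, became 1.33 without sham replicate 6 and -6.16 without MCAO/R replicate 4. MSTRG.21546.25, at 0.258, was at 0.0894, 0.00835, 4.07, 17.5 and 8.90 FPKM in MCAO/R and at 10.1, 50.7, 20.8, 29.7 and 7.19 FPKM in sham, with overlapping groups. No library held most of its sham level, and its log2 ratio, -1.96, was -2.86 without MCAO/R replicate 4 and -1.47 without sham replicate 7, the extremes with 1 library left out.

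The members nearest to the level bound had means of 5.01 and 5.02 FPKM, and the nearest transcripts below it 4.70 and 4.74 FPKM. Beyond the lower ratio bound the nearest transcripts had ratios of 0.156 and 0.177, and beyond the upper bound 4.02 and 4.13. Of the 79 abundant transcripts outside the bounds, 65 belonged to loci that also hold members, and 68 had over 50% of their FPKM in 1 library, as against 16 of the 148 members. The ratio bounds used the same values and tend to leave out transcripts carried by 1 library, so nothing is read from this contrast. With any 1 library left out, the rule took 136 to 146 transcripts, of which 136 to 144 were among the 148, fewest without MCAO/R replicate 3.

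A rarer pattern was a locus whose isoforms moved together. MSTRG.78989 held 13 members, the most of any locus, and its sum was 25.3, 613, 1729, 2447 and 464 FPKM in MCAO/R and 131, 1231, 1761, 558 and 1747 FPKM in sham. MCAO/R replicate 1 and sham replicate 6 were the lowest of their groups. After each group was centred on its mean, pairs of its members had a median correlation of 0.71 over the 10 libraries (78 pairs), and 0.94 among members that were never near 0 (36 pairs). All pairs of members at the same locus, these 78 included, had a median of 0.37 (203 pairs), and pairs at different loci of -0.00 (10675 pairs). At the other loci examined singly the medians ran from -0.13 (MSTRG.249705) to 0.37 (MSTRG.244811). These pairs share libraries and, within a locus, fragments.

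Its highest member, MSTRG.78989.9, switched, at 0.0321, 188, 482, 756 and 109 FPKM in MCAO/R and at 0.163, 211, 571, 71.4 and 199 FPKM in sham. The near-0 value was in MCAO/R replicate 1, and sham replicate 6 was just above 0.1 FPKM. A member of another locus, MSTRG.78994.1, had the pattern most like the sum of MSTRG.78989, with r = 0.995 over the 10 libraries. It measured 1.52, 26.0, 88.4, 150 and 29.3 FPKM in MCAO/R and 7.81, 70.3, 102, 40.0 and 91.6 FPKM in sham, and was again lowest in MCAO/R replicate 1 and sham replicate 6.

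Other transcripts of the locus were present in most libraries where a member was near 0. In 145 of the 150 near-0 values (96.7%), the other transcripts of the locus, in both tables, summed to at least 5 FPKM in that library, with a median of 223 FPKM. The 150 values came from 23 loci. The same share for libraries where the member was not near 0 is not given, so nothing is read from it. Summed over both tables, the locus still switched for 1 of the 43 switching members, and summed over the lncRNA table alone for 5. The exception was MSTRG.89259.1, alone at its locus, with 0.0293 FPKM in MCAO/R replicate 5 and 3.92 to 7.35 FPKM in the other 9 libraries.

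Among the 59 loci with several transcripts, the sum had a smaller spread than the median member in 51. The median over these loci was 0.86 for the members and 0.35 for the sums. Over all 87 loci, 55 sums had a spread under 0.5. Another 7 had a spread above 2. The largest were 2.71 at MSTRG.116387, whose only transcript is the member described above, and 2.62 at MSTRG.290313, both in the lncRNA table only, and the others were MSTRG.236454, MSTRG.78989, MSTRG.236450, MSTRG.216424 and MSTRG.78994. A sum over several transcripts has a smaller log spread than its parts where these vary separately, and added transcripts can only raise a near-0 value, so nothing is read from the smaller spread of the sums. The part of isoform assignment in the near-0 values was not tested.

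**Figure D5:**
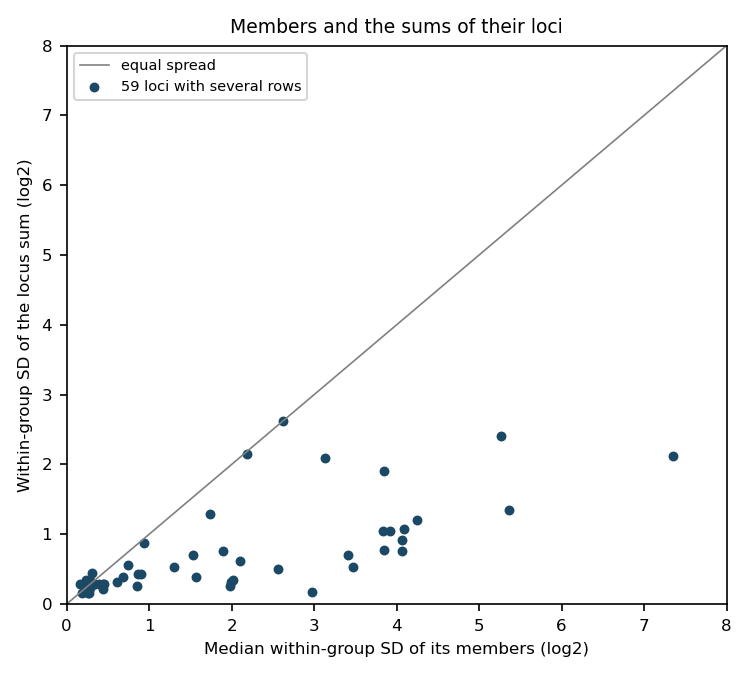
Each point is 1 of the 59 loci with several transcripts, with the median within-group SD of its members on log2(FPKM + 0.1) (horizontal) and the within-group SD of the sum of all its transcripts in both tables (vertical). Points under the line of equal spread, 51 of the 59, are loci whose sum varied less than their median member.

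The group means of most members were close. The ratio lay between 0.5 and 2 for 124 of the 148 and between 0.8 and 1.25 for 67. Under the same rule, 3682 of 4188 annotated and 2806 of 3316 assembled transcripts of the mRNA table lay between 0.5 and 2. The rule bounded this ratio, so nothing is read from its closeness to 1. Among members it was above 1 for 80 and below 1 for 68, with a median log2 ratio of 0.07. For 37 of the 124 this closeness of means came with a spread of 2 or more, so that the means were alike while the libraries were not. Only 53 members had both a ratio of 0.5 to 2 and a spread under 0.5, and 28 had both a ratio of 0.8 to 1.25 and that spread. Of the 87 locus sums, 82 had a ratio between 0.5 and 2.

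The groups did not overlap for 11 members (7.43%), 8 higher and 3 lower in MCAO/R, where 6.30% of the 20293 lncRNA transcripts tested did not overlap, 1.35% higher and 4.95% lower. In the limma fit over those 20293 transcripts, 2 of the 148 members passed an adjusted p of 0.05 (1.35%), 1 in each direction, beside 2.09% of all transcripts, of which 0.670% were higher and 1.42% lower in MCAO/R. At an unadjusted p under 0.05 there were 17 members. The median log2 fold change on the log2(FPKM + 0.1) scale was 0.02 for members and -0.38 for all transcripts tested, and 243 in place of 425 transcripts passed after quantile normalization, where these medians were -0.02 and -0.07. The choice of members used this contrast, so nothing is read from these counts.

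Readouts the choice did not use directly were the transcripts of the same loci in the mRNA table. Within a locus they can share fragments with the members, so they are not independent of the choice. The mRNA table listed transcripts for 35 of the 87 loci, which held 80 of the members, and the transcripts of each locus were summed. Of these 35 sums, 8 passed an adjusted p of 0.05 in limma (22.9%), 3 higher (8.57%) and 5 lower (14.3%) in MCAO/R, beside 19.5% of 25038 features of that table, 14.3% higher and 5.19% lower. Their median log2 fold change was -0.27, against 0.11 over all features. In this fit the share called was near that of the whole table. Without the filter on low values the share was 5.71% (2 of 35), beside 0.491% of 295119 features. The features added there had means under 0.5 FPKM, while all 35 sums had passed the filter, so these shares are not on like terms. With transcripts as deposited the share called was below that of the whole table (2.07% beside 6.01%). After quantile normalization, which moved the median of all features to -0.04, 8 also passed but none was higher and 8 were lower. Without sham replicate 7 or 9 the count was 4, and 5 when MCAO/R replicate 1 or sham replicate 10 was left out.

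Among the 5 that passed and were lower, the largest changes were those of MSTRG.184400 and MSTRG.207428. MSTRG.207428 was at 16.8, 13.8, 20.7, 23.7 and 15.4 FPKM in MCAO/R and at 48.9, 50.4, 41.1, 50.3 and 40.0 FPKM in sham, a log2 fold change of -1.32 (SE 0.15) on the log2(FPKM + 1) scale, with a limma adjusted p of 0.000610. MSTRG.184400 was at 16.0, 18.7, 15.6, 12.4 and 26.7 FPKM in MCAO/R and at 48.3, 33.7, 45.7, 42.7 and 56.9 FPKM in sham, a log2 fold change of -1.32 (SE 0.20) with a limma adjusted p of 0.00231. In both, all 5 MCAO/R libraries were below all 5 sham libraries, and both passed in every fit with 1 library left out and after quantile normalization. The lncRNA member MSTRG.207428.2, named for its locus, was at 1.38, 2.01, 4.08, 2.95 and 2.42 FPKM in MCAO/R and at 6.90, 8.32, 5.79, 10.0 and 7.43 FPKM in sham. MSTRG.184400.8, the higher of the 2 members at MSTRG.184400 and also named for its locus, did not fall with the sum. It was at 19.1, 0.440, 32.0, 35.4 and 0.441 FPKM in MCAO/R and at 6.29, 19.5, 17.6, 2.04 and 0.544 FPKM in sham. Its ratio was 1.90 and its groups overlapped.

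Among the 3 that passed and were higher, the largest changes were those of MSTRG.69485 and MSTRG.46797. MSTRG.69485 was at 5.27, 3.83, 3.17, 3.98 and 5.77 FPKM in MCAO/R and at 2.53, 2.58, 2.44, 2.30 and 2.46 FPKM in sham, with a log2 fold change of 0.62 (SE 0.15) and a limma adjusted p of 0.0178. All MCAO/R libraries were above all sham libraries. The adjusted p was 0.0576 after quantile normalization and 0.188 without the filter on low values. MSTRG.46797 was at 28.5, 20.5, 21.4, 19.8 and 24.6 FPKM in MCAO/R and at 19.3, 12.1, 18.0, 13.5 and 11.2 FPKM in sham, with a log2 fold change of 0.62 (SE 0.17) and a limma adjusted p of 0.0295. Its lowest MCAO/R library was above its highest sham library by little, and the adjusted p rose to between 0.0632 and 0.0686 without MCAO/R replicate 1 or 5 or sham replicate 7, 9 or 10, to 0.0592 after quantile normalization and to 0.316 without the filter on low values.

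Other lncRNA isoforms of the member loci are not independent of the choice, since they share fragments with the members, and 65 of the 442 tested had a mean of at least 5 FPKM and were left out by their group ratio alone. Their calls are a description. Of the 442 isoforms, 11 passed an adjusted p of 0.05 (2.49%), 4 higher and 7 lower in MCAO/R, beside the 2.09% of all lncRNA transcripts, and 66 had an unadjusted p under 0.05. Of the 4 higher ones, 3 belong to MSTRG.69485. The strongest of these, chosen after its values were seen, was at 6.96, 3.41, 1.28, 6.51 and 7.47 FPKM in MCAO/R and at 0.186, 0.221, 0, 0.253 and 0 FPKM in sham, a log2 fold change of 4.47 (SE 0.52) with a limma adjusted p of 0.00296, and it passed in all 10 fits with a library left out. Its sham values lie near the pseudocount of 0.1, so the size of the change depends on it. With a pseudocount of 1 the log2 fold change was 2.29, with a limma adjusted p of 0.0424. A member of the same locus, MSTRG.69485.7, was at 17.6, 14.4, 11.5, 19.8 and 22.1 FPKM in MCAO/R and at 7.56, 5.83, 5.91, 10.5 and 6.45 FPKM in sham, a description only. The count of 11 became 1 when MCAO/R replicate 5 or sham replicate 7 was left out, 19 when MCAO/R replicate 3 was and 18 when sham replicate 6 was. Leaving out any other single library gave 2 to 4.

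The largest locus by number of isoforms, MSTRG.19975, had 105 lncRNA transcripts and 11 members. Its member MSTRG.19975.80 was at 4.09, 27.1, 15.3, 16.8 and 26.0 FPKM in MCAO/R and at 8.74, 29.6, 16.5, 15.3 and 4.90 FPKM in sham, a ratio of 1.19 with a spread of 1.04 and overlapping groups. Pairs of its members had a median correlation of 0.29 (55 pairs), lower than the 0.71 at MSTRG.78989.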

How the data were processed

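Cortical total RNA of 5 MCAO/R and 5 sham libraries was quantified by the authors, who deposited FPKM values for 31183 lncRNA and 364224 mRNA-table transcripts. The genome build was Rnor_5.0, per the submitters' processing notes, and assembler, quantification tool, library total and lncRNA classification were not given in the sources used here. Levels of isoforms that share fragments are estimates. Groups were taken from the labels, and 0 value columns belonged to no sample.

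The members, and the lists and tests applied to them, were chosen with earlier results of these data known. Spread is the SD of log2(FPKM + 0.1). The sum of a locus adds all transcripts that carry its number in both tables. Differences were tested with limma 3.58.1 (R 4.3.3, lmFit and eBayes with trend, two-sided, Benjamini-Hochberg over all features tested, threshold 0.05). lncRNA transcripts with a mean of at least 0.1 FPKM entered on log2(FPKM + 0.1), and mRNA-table features, with isoforms of a locus summed and a mean of at least 0.5 FPKM, on log2(FPKM + 1), where fold changes of low features are understated. The procedure was tested on simulated data. Summaries used Python 3.11.15 with pandas 2.3.3, numpy 2.4.6 and matplotlib 3.10.9.

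Named were the 6 highest members, the 4 steadiest and 4 most variable, the 6 highest that switch, the 2 highest and 2 lowest ratios, transcripts next to each bound, a member of the locus with most isoforms, and 2 rising and 2 falling mRNA-table sums. Others are said to be named after their values were seen or for their locus. Alternatives changed the pseudocount, filter, scaling, thresholds, locus summing and left out each library in turn.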

Additional observations from a re-analysis of the deposited data

Results flagged for a closer look

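Levels of 19 named members, the member share and the 4 named mRNA-table sums were examined in each group, 48 groups of 5 values, for a library far from the other 4 (a gap to the nearest library above Dixon's critical share of the whole range). Such a gap was found in 13 groups. Chance flags about 1 in 20 groups of normally distributed values, but most of these members were named for a large spread, for switching or for an extreme ratio, and several share a locus, so the count cannot be set against that rate.

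All 13 were high values in a single library. In MCAO/R, MSTRG.268847.1 stood at 23008 FPKM in replicate 1 (next highest 19899), MSTRG.249705.5 at 1210 FPKM in replicate 2 (next 0.0078) and MSTRG.236450.7 at 9889 FPKM in replicate 3 (next 23.4). In MCAO/R replicate 4, 3 members stood out: MSTRG.236454.1 at 11148 FPKM (next 754), MSTRG.216423.1 at 695 FPKM (next 160) and MSTRG.78988.11 at 57.3 FPKM (next 1.98). In MCAO/R replicate 5 they were MSTRG.249705.4 at 4063 FPKM (next 61.2) and MSTRG.78988.3 at 2428 FPKM (next 39.8).

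In sham, MSTRG.78988.11 stood at 215 FPKM in replicate 6 (next 10.8). Sham replicate 7 held 3 of these values, MSTRG.290313.1 at 9444 FPKM (next 2633), MSTRG.236450.3 at 2071 FPKM (next 0.0319) and MSTRG.249705.5 at 479 FPKM, where the other 4 sham libraries were listed at 0. MSTRG.236454.1 was at 14210 FPKM in sham replicate 8 (next 5.04).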

How the results depend on the processing

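No paired analysis was possible because the replicate numbers, 1 to 5 and 6 to 10, share none between groups. The lncRNA transcripts that passed limma, 425, became 8 with a pseudocount of 1, 262 without the filter on low values and 243 after quantile normalization (176 higher and 67 lower, where the split was 136 and 289), and 12 to 1282 with 1 library left out, so this count and the calls within it rest on single libraries. Other isoforms of member loci, 11, became 1 with a pseudocount of 1 and 1 to 19 with 1 library left out. Sums of mRNA-table transcripts that passed, 8 of 35 (22.9%, beside 19.5% of all features), became 2 of 35 without the filter (5.71%, beside 0.491%). Most features of that wider set are below the filter, so its share is not on like terms with that of the sums. As deposited transcripts, 5 of 242 passed (2.07%, beside 6.01%). With 1 library left out, 4 to 8 sums passed.

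Members numbered 88 in place of 148 at a mean of at least 10 FPKM, chosen after seeing the data, and 136 to 146 with 1 library left out. Their sham share, 70.2%, became 48.5% without the highest transcript and 55.8% at ratios of 0.5 to 2. With 1 library left out the share was 63.9% to 75.5% in MCAO/R and 67.9% to 71.7% in sham. Median spread became, in MCAO/R and sham, 0.84 and 0.63 with a pseudocount of 1, 0.46 and 0.51 for a median of at least 5 FPKM, 0.35 and 0.34 without loci of several members (chosen after seeing the data), and 0.59 to 0.80 and 0.53 to 0.67 with 1 library left out. Switching members, 43, became 1 as sums of the locus in both tables and 5 in the lncRNA table (chosen after seeing the data), and 38 to 43 with 1 library left out. Ratios of 0.5 to 2 held for 117 to 126 members with 1 library left out. Depth is unknown, so a value listed at 0 sets no limit on the level.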

Other observations

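Libraries were compared over the members alone, on log2(FPKM + 0.1). The mean correlation was 0.394 between MCAO/R libraries, 0.444 between sham libraries and 0.448 between the groups, as a description across 148 transcripts that share loci. The ratio bounds left out transcripts with large group differences, so nothing is read from the likeness of the groups. Over 10105 annotated transcripts of the mRNA table the same means were 0.879, 0.890 and 0.841. That set is wider than the 4188 under the member rule, so the 2 sets of means are not alike in their choice.

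The abundant transcripts outside the ratio bounds were more often carried by a single library. Of these 79, 44 had over 90% of their FPKM in 1 library and 71 switched between near 0 and high values. Their median spread was 3.23, against 1.00 for members. The ratio bounds used the same values, so nothing is read from these contrasts.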
